A study of Homo sapiens with 2 samples.

Results

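A PAR-CLIP site list of HA-METTL14 from HepG2 cells held 5981 T-to-C sites. Of these, 1103 stood alone in the genome and had a score between a lower and an upper limit. They were chosen by measured values: no other listed site, on either strand, lay within 20000 nt of them, and the authors' score was from 6 to 49. The 31 sites of the mitochondrial chromosome were left out. The 1103 lone sites made up 18.4% of the list (95% Wilson interval 17.5 to 19.4%, counting error only) and were spread over all 24 nuclear chromosomes.

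HepG2 is an established human liver tumour line. The cells came from lentiviral infection, puromycin selection (1 µg/ml) and sorting for high green fluorescence, and they carried METTL14 with an HA tag at its N-terminus and EGFP at its C-terminus. The tagged protein was thus added to the cells' own METTL14. Both libraries, replicates 1 and 2, were of this 1 group, with 200 µM 4-thiouridine for 16 h, 365 nm light at 0.15 J/cm2 given 3 times, and RNase T1 at 0.2 and then 10 U/µL. The list gives 1 score per site for the group, so no value here has an error between replicates, and 0 control libraries were analysed.

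METTL14 forms a heterodimer with METTL3, the catalytic subunit, and helps to hold the RNA on which adenosines are turned into N6-methyladenosine. This mark is found in many messenger RNAs, and reader proteins that recognise it affect splicing, decay and translation. In PAR-CLIP a 4-thiouridine that was in contact with protein is copied as C rather than T, so a listed site names a base and a strand. RNase T1 cuts after G, and only RNA pieces of a length that can be cloned and mapped are seen. A lone site is one such base with no listed companion for a long stretch around it.

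By score, the lone sites described here lay between 2 other sets of lone sites. There were 1898 lone sites with a score of 3 to 5 and 243 with a score of 50 or more, so the 1103 were 34.0% (32.4 to 35.6%) of all 3244 lone nuclear sites. Their median score was 9, with quartiles of 7 and 17, above the median of 5 over the whole list. Scores in the list ran from 3 to 1.86e+06. The name "middle" therefore marks the place between the 2 other sets of lone sites. It is neither the centre of the list nor the middle of its range. Scores under 10 were held by 586 of the 1103, 53.1%, and scores of 30 or more by 106. Together the 1103 held 0.181% of the summed score of the list, while the 243 lone sites of 50 or more held 6.01%. Around the lower limit there were 337 lone sites at score 5 and 238 at score 6, and around the upper limit 4 at score 49 and 1 at score 50.

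**Figure D1:**
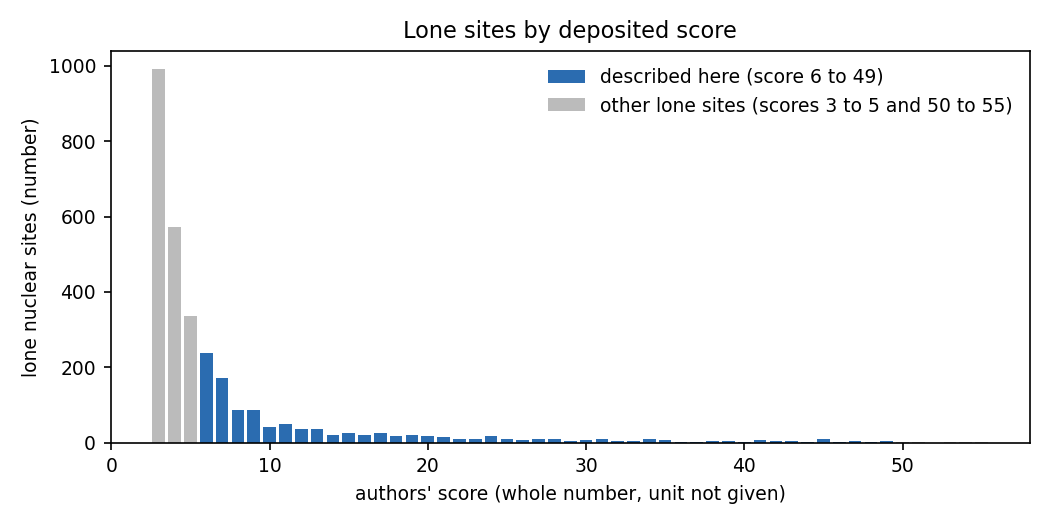
Number of lone nuclear sites (vertical axis) at each whole-number score from 3 to 55 (horizontal axis); blue bars are the scores 6 to 49 and grey bars other lone sites. The bars fall from 238 sites at score 6 to 43 at score 10 and stay at 20 or fewer from score 18 on.

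Standing alone was less frequent at higher scores. Of all nuclear sites with a score of 3 to 5, 61.8% (60.1 to 63.5%) were lone. Of those with a score of 6 to 49, 52.4% (50.2 to 54.5%, 1103 of 2106) were lone, and of those with 50 or more, 31.4% (28.3 to 34.8%). Both the spacing and the score chose the sites, so these shares are a description.

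The lone sites of score 6 to 49 were spread widely and followed the number of genes per chromosome. Chromosome 1 held 96 of them, chromosome 2 held 78 and chromosome 6 held 70, while chromosome 21 held 13, chromosome 13 held 15 and chromosome 18 held 17. Outside the autosomes, chromosome X held 34 and chromosome Y held 7. Over the 22 autosomes their number correlated with the number of protein-coding genes in GENCODE 29 at Pearson's r = 0.873 (Spearman's rho = 0.823), and at r = 0.869 with the autosomes whose gene numbers were most extreme, 1 and 19, left out. For lone sites of score 3 to 5 the same r was 0.881, and for those of 50 or more 0.749. For all nuclear sites of the list it was 0.927 (rho = 0.945), above that of the set described here, so the relation is not particular to this set. The points share the libraries, the list and the size of the chromosomes, so the values describe these chromosomes and carry no p. With annotated length, the coordinate where the last protein-coding exon ends, r was 0.737, and it was 0.566 without chromosomes 1 and 2.

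Set against genes, the sites were fewest on some of the chromosomes with most genes per Mb. The mean over the autosomes was 5.83 ± 1.17 (SD over 22 autosomes) sites per 100 protein-coding genes. The 3 highest values were 8.29 on chromosome 20 (exact Poisson interval 6.04 to 11.1, counting error only), 7.54 on chromosome 10 (5.68 to 9.82) and 7.47 on chromosome 9 (5.68 to 9.66). The 3 lowest were 3.60 on chromosome 19 (2.70 to 4.71), 4.13 on chromosome 11 (3.10 to 5.38) and 4.30 on chromosome 17 (3.20 to 5.65). The intervals of chromosomes 20 and 19 did not overlap, whereas those of chromosomes 20, 10 and 9 did, as did those of 19, 11 and 17. Spacing chose the sites, so a chromosome dense in listed sites can lose members by rule, and these values are a description. Of sites of any score, 38.6% of 404 were lone on chromosome 19 and 54.1% of 222 on chromosome 20. Lone sites of score 3 to 5 numbered 92 and 67 there, for 1472 and 543 genes. Per Mb, chromosome 19, with 25.1 genes per Mb, held 0.905 of the sites per Mb, the most of any autosome, followed by chromosome 20 with 0.700, and chromosome 13, with 2.81 genes per Mb, held 0.131, the fewest of any autosome. Over the 22 autosomes, sites per Mb and genes per Mb correlated at r = 0.882 (rho = 0.887), and at r = 0.810 without chromosomes 19 and 17. Both densities were divided by the same annotated length, which can by itself raise r, so these values are a description.

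**Figure D2:**
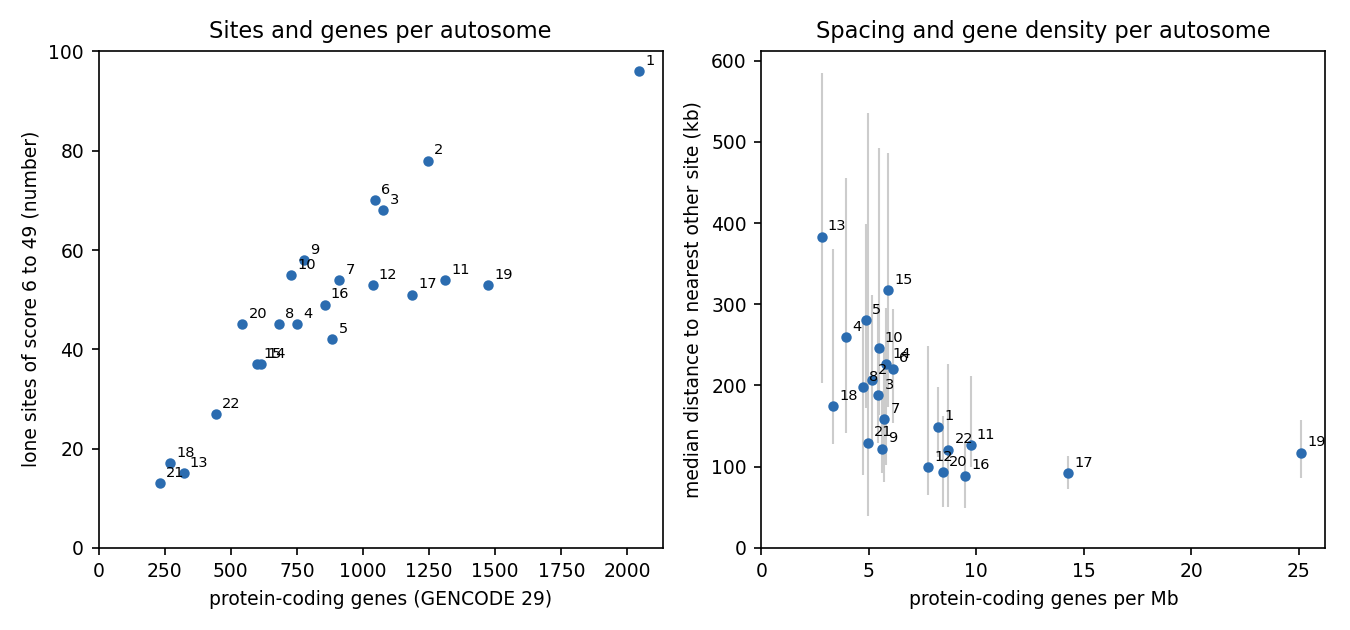
Left, lone sites of score 6 to 49 (number) against protein-coding genes for the 22 autosomes, each point labelled with its chromosome (r = 0.873); right, the median distance in kb from these sites to the nearest other site against protein-coding genes per Mb, with 95% order-statistic intervals as grey lines. Chromosome 19 lies low on the left for its 1472 genes, and chromosome 13 has the highest median distance on the right, 383 kb.

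The share of each autosome's own sites that fell into this set was only loosely related to gene density (r = -0.474, rho = -0.383 with genes per Mb over the 22 autosomes, r = -0.256 without chromosomes 19 and 17). Among autosomes it was highest on chromosomes 15 (31.1%, 37 of 119 sites), 10 (28.9%, 55 of 190) and 9 (23.9%, 58 of 243). It was lowest on chromosomes 19 (13.1%, 53 of 404), 16 (13.8%, 49 of 356) and 17 (14.01%, 51 of 364), while gene-poor chromosome 13 had 16.1%. On chromosome Y it was 12.1% (7 of 58). Spacing chose the sites, so this share is a description. Over the autosomes, the share of sites of any score that were lone was lowest on chromosome 16 (37.9%) and highest on chromosome 13 (78.5%), and it correlated with sites per Mb at r = -0.805 (rho = -0.841, -0.806 without chromosomes 19 and 17). Among lone sites only, all more than 20 kb from any other listed site by rule, the 1103 took a similar share on most chromosomes. The 95% Wilson interval of that share held the overall 34.0% on 22 of 24 chromosomes. The exceptions were chromosome 10, with 44.4% (35.9 to 53.1%, 55 of 124 lone sites), and chromosome 13, with 20.5% (12.9 to 31.2%, 15 of 73). They were singled out after their values were seen.

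The autosomes were also grouped by gene density. The 5 autosomes with most genes per Mb (11, 16, 17, 19 and 22) held 234 of the sites, or 0.561 per Mb and 4.45 per 100 genes (exact Poisson interval 3.89 to 5.05). The 5 with fewest (4, 5, 8, 13 and 18) held 164, or 0.231 per Mb and 5.64 per 100 genes (4.81 to 6.57). The 12 between held 664, or 0.381 per Mb and 6.12 per 100 genes (5.67 to 6.61). The intervals per 100 genes of the dense and the intermediate group did not overlap. The spacing rule can take members from a group dense in listed sites, so these values are a description. Of sites of any score, 43.3% were lone in the dense, 58.3% in the intermediate and 60.9% in the sparse group. Among lone sites only, the set made up 33.6% (30.2 to 37.2%), 35.1% (32.99 to 37.3%) and 30.4% (26.6 to 34.4%), and these intervals overlapped. The median score was 8 on the dense autosomes and 9.5 on the sparse ones.

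The strands were unequal. Of the 1103 sites, 609 lay on the plus strand and 494 on the minus strand, 55.2% plus (52.3 to 58.1%, two-sided exact binomial test against 50%, p = 0.000592, adjusted p = 0.00178 over 3 sets of lone sites). The strand was not used to choose the sites, as spacing was taken over both strands. Among lone sites of score 3 to 5 the plus share was 50.4% (48.2 to 52.7%, adjusted p = 0.731 in the same exact test), and among those of 50 or more it was 52.3% (46.0 to 58.5%, adjusted p = 0.731). All nuclear sites of the list were 50.2% plus, and the 1003 sites of score 6 to 49 that were not lone were 48.8% plus. Protein-coding genes in GENCODE 29 were 50.5% plus on these chromosomes, and 50.6% when each chromosome was weighted by its number of the lone sites described here. Against that gene share the 55.2% gave an exact binomial p of 0.00212.

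The difference between sets was tested for 2 of them. The plus share of the 1103 was 4.79 percentage points above that of lone sites of score 3 to 5 (95% Newcombe interval 1.09 to 8.47, two-sided Fisher's exact test, adjusted p = 0.0247 over 2 comparisons). It was 2.95 points above that of lone sites of 50 or more (-3.91 to 9.86, Fisher's exact test, adjusted p = 0.434), an interval that holds 0 as well as differences larger than the first. Both comparisons were chosen after the strand shares had been seen. All these tests take each site as independent, and they say nothing of the spread between libraries.

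The excess of plus sites was not carried by a single chromosome. On 18 of 24 chromosomes more than 50% of the sites were on the plus strand, and on 6 fewer (chromosomes 2, 10, 11, 21, 22 and Y). In the exact binomial test per chromosome, 0 of 24 passed at an adjusted p under 0.05, 0% of those tested, and 1 had an unadjusted p under 0.05. Over all nuclear sites of the list, 16.7% of the chromosomes passed (4 of 24). There a chromosome held 58 to 542 sites, against 7 to 96 of the set, so the counts of calls differ in power. The source of the difference was not tested. The 1 with an unadjusted p under 0.05 was chromosome 12, with 37 of 53 sites on the plus strand, 69.8% (56.5 to 80.5%, exact binomial p = 0.00549, adjusted p = 0.132). Chromosome 22 lay farthest on the other side, with 9 of 27 on the plus strand, 33.3% (18.6 to 52.2%). With any 1 chromosome left out, the plus share was from 54.5 to 55.8% and the exact binomial p was at most 0.00408. With same-strand sites of the set within 100000 nt counted once, it was 54.4% (exact binomial p = 0.00437).

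**Figure D3:**
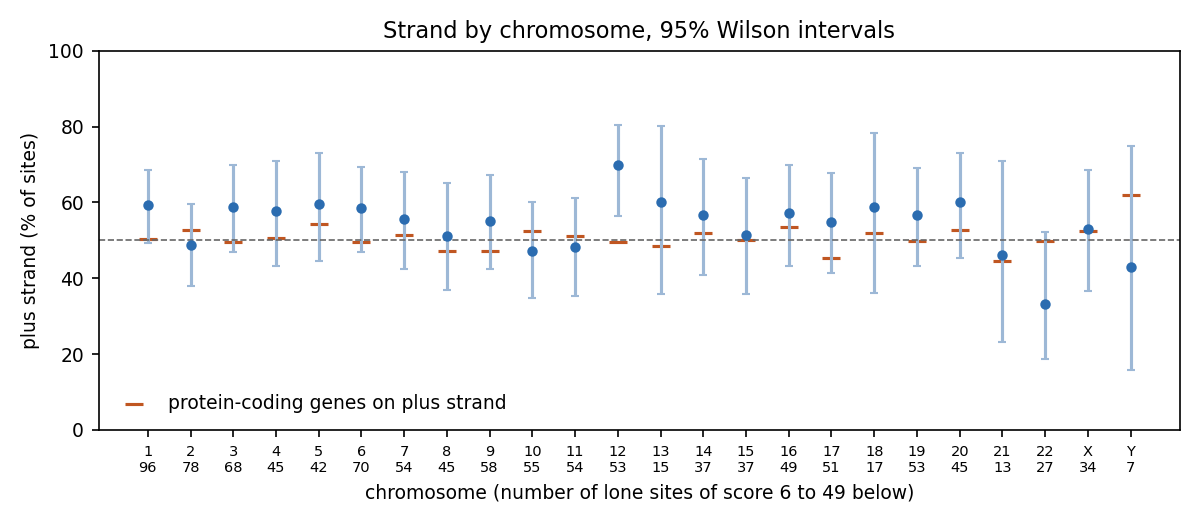
Plus-strand share in percent of the lone sites of score 6 to 49 on each chromosome (blue points, 95% Wilson intervals; the number of sites stands under each chromosome), with the plus-strand share of protein-coding genes as orange bars and 50% as the dashed line. Points lie above 50% on 18 of 24 chromosomes, and only the interval of chromosome 12 leaves out 50%.

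The plus share was above 50% in every band of score within the range. It was 53.8% (48.9 to 58.5%) of the 411 sites of score 6 or 7, 54.3% of 175 at 8 or 9, and 56.0% of 168 at 10 to 13. It was 55.4% of 130 at 14 to 19, 57.5% of 113 at 20 to 29 and 58.5% (48.97 to 67.4%) of 106 at 30 to 49. The bands are parts of the same set, and the interval of every band held 50%. The intervals of the bands overlapped, so no band stood apart from another. By distance to the nearest other site, the plus share was 59.1% (52.0 to 65.8%, 193 sites) from 20 to 50 kb. It was 55.8% (48.8 to 62.5%, 199 sites) from 50 to 100 kb and 47.5% (40.9 to 54.1%, 217 sites) from 100 to 200 kb. It was 58.1% (52.2 to 63.9%, 270 sites) from 200 to 500 kb and 55.4% (48.8 to 61.7%, 224 sites) beyond 500 kb. By gene density it was 51.7% (45.3 to 58.0%) on the 5 densest autosomes, 56.3% (52.5 to 60.1%) on the 12 between and 56.7% (49.1 to 64.1%) on the 5 sparsest, with intervals that overlapped.

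**Figure D4:**
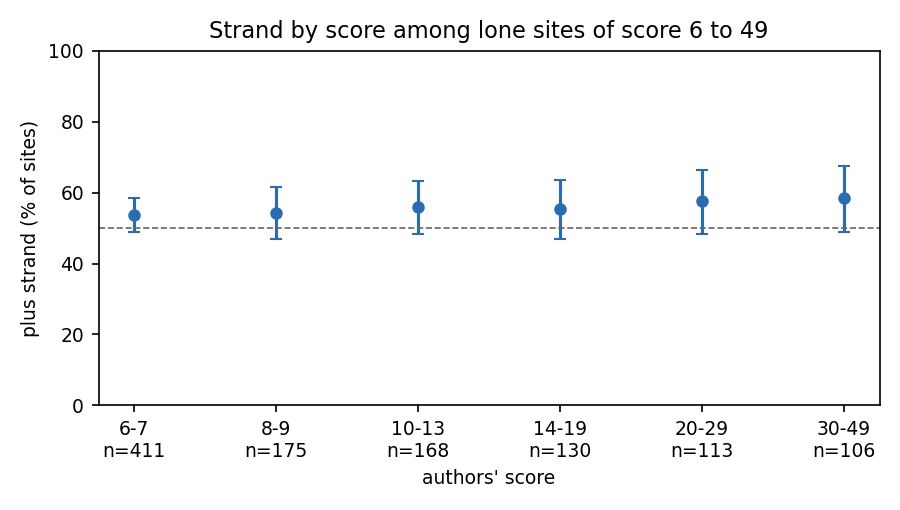
Plus-strand share in percent (vertical axis) of the lone sites of score 6 to 49 in 6 bands of the authors' score (horizontal axis, with the number of sites), with 95% Wilson intervals and 50% as the dashed line. The points run from 53.8% at scores 6 and 7 to 58.5% at 30 to 49, and every interval holds 50% and overlaps the others.

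The nearest other site was usually far beyond the limit of 20 kb that chose the set. The median distance was 166 kb (95% order-statistic interval 150 to 179 kb), the quartiles were 70.6 and 418 kb, and the highest was 5244 kb. From 20 to 50 kb there were 193 sites, 17.5% of the set. There were 199 from 50 to 100 kb, 217 from 100 to 200 kb, 270 from 200 to 500 kb and 224 beyond 500 kb. No other listed site lay within 1 Mb of 104 sites, 9.43% (7.84 to 11.3%). The distances begin at 20 kb by rule and are given without a test.

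Lone sites of lower and higher score were spaced much the same. The median distance was 163 kb (153 to 180 kb) for scores of 3 to 5 and 207 kb (150 to 251 kb) for scores of 50 or more, and both intervals overlapped that of the 1103. The share without any listed site within 1 Mb was 8.22% (7.07 to 9.54%) and 11.5% (8.09 to 16.1%). A window of 1 Mb to either side held a median of 4 other sites in each of the 3 sets, with quartiles of 2 and 9 for the 1103. Around the 1003 sites of the same score that were not lone, the median was 11. To the nearest site on the same strand the 1103 had a median distance of 321 kb, and to the nearest on the opposite strand 343 kb.

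Distances tended to be longer on autosomes with fewer genes per Mb, with exceptions. Among autosomes the lowest median distance was 89.0 kb, on chromosome 16, and the highest 383 kb, on chromosome 13. Chromosome 18, with 3.35 genes per Mb, had 174 kb, and chromosome 15, with 5.89, had 317 kb. On chromosome X the median was 497 kb (309 to 762 kb), and over the 7 sites of chromosome Y it was 556 kb. Over the 22 autosomes it correlated with genes per Mb at r = -0.508 (rho = -0.704), and at r = -0.689 without chromosomes 19 and 17. On the 5 densest autosomes the median was 106 kb (89.5 to 120 kb) and 2.99% of the sites (7 of 234) had no other within 1 Mb. On the 5 sparsest it was 230 kb (179 to 315 kb) and 15.9% (26 of 164). Spacing chose the sites and the sites are not replicates, so both measures are given without a test. The density of listed sites of any score differed too, from 0.813 per Mb on chromosome 13 to 6.90 per Mb on chromosome 19. None of the sites on chromosomes 16, 19, 20 and 22 (0 of 49, 53, 45 and 27) was more than 1 Mb from another site.

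The 3 sites farthest from any other were on chromosomes 9, 3 and 21. The first, at 44503478 on the plus strand of chromosome 9 (hg19, as are all positions here), had a score of 31 and its nearest neighbour 5.24 Mb away. The second, at 88917601 on the minus strand of chromosome 3, had a score of 21 and a neighbour at 5.17 Mb. The third, at 23659901 on the minus strand of chromosome 21, had a score of 7, and its neighbour at 3.57 Mb had a score of 1552. In each of these 3 cases the nearest site lay on the opposite strand. Distances are plain differences of coordinates, and gaps in the assembly were not taken into account. Genes at these places were not analysed here, since no hg19 annotation was used here.

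Just inside the limit lay a site at 17303652 on the plus strand of chromosome 19 (score 24, nearest site at 20176 nt), one at 7306477 on the minus strand of chromosome 17 (score 7, 20207 nt) and one at 1767505 on the plus strand of chromosome 17 (score 34, 20235 nt). Just outside it lay sites of the same range of scores at 20791338 on the minus strand of chromosome 14 (score 32, 19889 nt), on chromosome 17 at 79974731, plus strand (score 7, 19871 nt), and on chromosome 8 at 144379335, plus strand (score 6, 19803 nt). The limit therefore does not fall in a gap of the distances.

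The nearest neighbours were mostly lone themselves, and their scores were close to those found around other lone sites. For 610 of the 1103 sites, 55.3% (52.4 to 58.2%), the nearest site had a score of 3 to 5, for 407 (36.9%, 34.1 to 39.8%) a score of 6 to 49, and for 86 (7.80%, 6.36 to 9.53%) a score of 50 or more. Of all nuclear sites, 51.6% had a score of 3 to 5, 35.4% had 6 to 49 and 12.99% had 50 or more. The smaller part of high scores among these neighbours is a description, as the spacing rule bears on it. Sites of 50 or more were less often lone (31.4%), and 243 of all 3244 lone nuclear sites had such a score. The nearest site was itself lone for 862 sites, 78.2% (75.6 to 80.5%), and belonged to the set described here for 304. The other lone sites had much the same neighbours: the nearest site had a score of 3 to 5 for 56.9% of those of score 3 to 5 and 55.1% of those of 50 or more, and it was lone for 79.7% and 81.5%. From 1 site of the set to the next nearest of the set, the median distance was 673 kb (576 to 734 kb).

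At such distances the sites still shared the strand of their nearest neighbour slightly more often than not. With mutual pairs counted once there were 1006 pairs, and 548 of them, 54.5% (51.4 to 57.5%), lay on 1 strand (two-sided exact binomial test against 50%, p = 0.00499, adjusted p = 0.0213 over 6 tests). From 20 to 50 kb the share was 60.6% (53.1 to 67.6%) of 170 pairs (exact binomial adjusted p = 0.0213). It was 56.6% (49.2 to 63.7%) of 175 pairs from 50 to 100 kb and 54.9% (47.9 to 61.8%) of 193 pairs from 100 to 200 kb, and neither passed (exact binomial adjusted p = 0.192 and 0.292). From 200 to 500 kb it was 49.2% (43.1 to 55.3%) of 254 pairs and beyond 500 kb 53.7% (47.1 to 60.3%) of 214. Neither of these passed (exact binomial adjusted p = 0.851 and 0.366).

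The call over all pairs depended on how the set was cut. With a spacing limit of 50000 nt the share was 53.2% (exact binomial p = 0.0667), and with scores of 10 to 49 it was 52.8% (exact binomial p = 0.228). For lone sites of score 3 to 5 the share was 54.8% (52.4 to 57.2%) of 1613 pairs, and 62.7% (56.8 to 68.4%) of 263 pairs from 20 to 50 kb. For those of 50 or more it was 52.3% (46.0 to 58.6%) of 235 pairs. The intervals of the 3 sets overlapped, and their differences were not tested. By strand of the site itself, 56.5% (52.5 to 60.4%) of the 609 plus sites and 51.6% (47.2 to 56.0%) of the 494 minus sites had a nearest neighbour on their own strand.

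**Figure D5:**
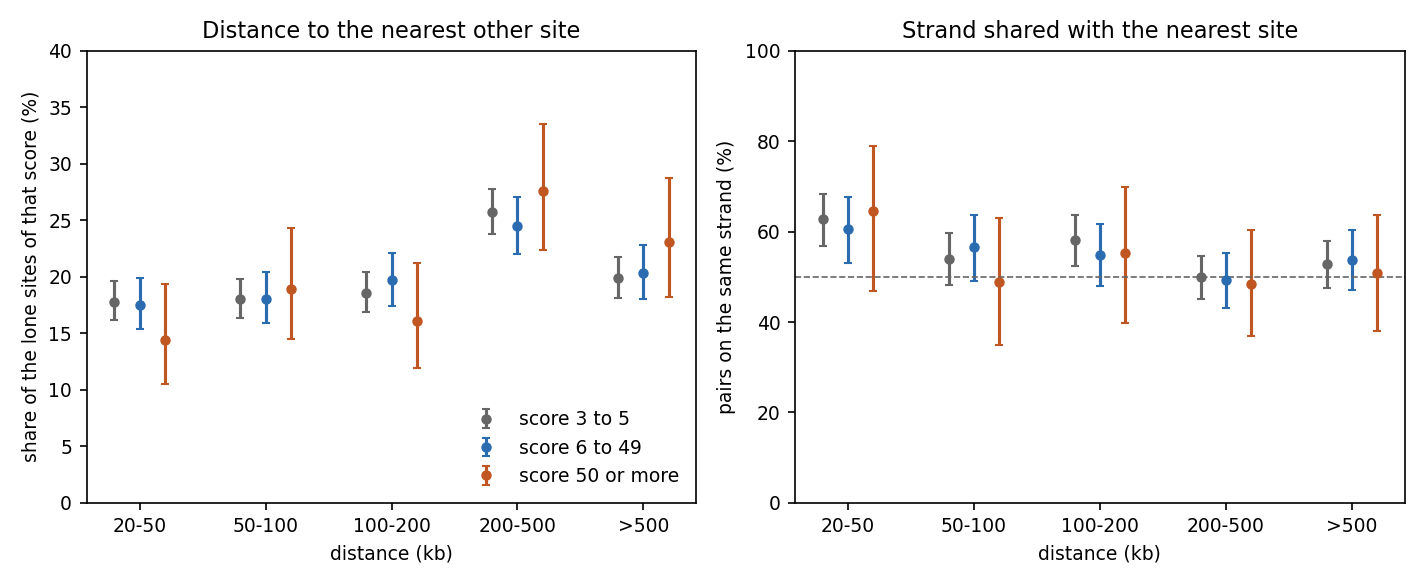
Left, share in percent of lone sites by distance in kb to the nearest other site, in 5 bins of unequal width, for scores of 3 to 5 (grey), 6 to 49 (blue) and 50 or more (orange); right, share in percent of nearest pairs on the same strand in the same bins, with 50% as the dashed line; bars are 95% Wilson intervals. The 3 sets overlap in every bin on the left, and on the right the blue points run from 60.6% at 20 to 50 kb to 49.2% at 200 to 500 kb.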

How the data were processed

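The submitters' processing notes name the build hg19 and the tools cutadapt 1.13, Bowtie 1.1.2 and FastQC 0.11.5. The deposited score is the authors' value per site, with 1 value for both libraries. The sources used here do not give its unit, the settings of the site caller, how libraries were pooled, or read depth. Each deposited interval was 201 nt wide, and its middle base was taken as the site, 1-based. The members and lists were chosen with earlier results of these data known. Places named were the 3 sites farthest from any other, 3 on either side of the spacing limit, and the autosomes with the 3 highest and lowest values per gene and per site. Strand shares were tested with exact binomial and Fisher's exact tests in scipy 1.17.1 with Benjamini-Hochberg adjustment. The code for nearest distances, pair counts, the adjustment and the binomial test per chromosome was first checked on constructed or simulated data. Fisher's exact test and the Newcombe interval were not checked in this way. Chromosome gene numbers came from GENCODE 29 (GRCh38), without joining site coordinates. The planned check of base and gene at each site needs hg19 sequence and annotation and was not run, and no sequence is printed.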

Additional observations from a re-analysis of the deposited data

How the results depend on the processing

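Of 84 recomputed values, 75 gave the same call, or a value inside the 95% interval of the one reported (counts, within 1.5 times). For the plus share and for the same-strand share, 24 values each came from leaving out 1 chromosome. These used nearly the same sites and all gave the same call, so the total overstates how many separate checks were made. Leaving out single chromosomes, merging same-strand sites, annotated length and leaving out chromosomes 2, 16 and 20 were added after the data were seen. The set of 1103 became 517 with scores of 10 to 49 and 2096 with scores of 4 to 99, as narrower and wider ranges must give; in the latter, 1 of 24 chromosomes had unequal strands in the exact binomial test, against 0. The same-strand share of nearest pairs, 54.5%, was 53.2% with a spacing limit of 50000 nt and 52.8% with scores of 10 to 49, no longer past the threshold; fewer sites entered both. The median distance of 166 kb was 142 kb with a limit of 10000 nt, 227 kb with 50000 nt, 179 kb with scores of 10 to 49, and 295 kb when sites of score 6 or more alone counted as neighbours. The plus share stayed between 53.6 and 56.7% over its 30 alternatives and passed the exact binomial test in each, and the r with gene number stayed between 0.762 and 0.919 over 7 alternatives; it was 0.898 with exonic length and 0.737 with annotated length in its place. No paired analysis was possible because there is a single group, and neither replicate could be left out, as each site has 1 score for both. Depth is unknown, so a stretch without a listed site is not shown to be unbound.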

Other observations

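The number of lone sites fell with score in steps and not evenly. There were 238 at score 6, 173 at 7, 88 at 8, 87 at 9, 43 at 10, 50 at 11, 38 at 12, 37 at 13 and 20 at 14. All nuclear sites, lone or not, showed steps at the same places, with 444 at score 6, 354 at 7, 154 at 8, 147 at 9, 84 at 10 and 88 at 11. The share of sites that were lone was 64.2% at score 3, 61.2% at 4, 56.5% at 5, 53.6% at 6 and 48.9% at 7, and then 57.1% at 8 and 59.2% at 9. The sources used here do not say how the score is built, and the source of the steps was not tested.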
